A study of Mus musculus with 141 samples.

Results

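Transcript levels of Foxo1, Klf2, Klf3, Klf6, Klf7, Klf13, S1pr1 and Ccr7 were measured by RNA sequencing in mouse CD4 T cells, from the naive state through 72 h of stimulation. The 8 genes were chosen by name, out of 46517 genes in the deposited table, as a forkhead factor, 5 Krüppel-like factors (KLFs) and a pair of receptors. All 8 passed the filter on low values. Naive CD4 T cells (CD4+CD25-CD44lo) were sorted from the lymph nodes and spleen of inbred C57BL/6 mice and cultured for 9 times: 0.5, 1 and 2 h, then 4, 6 and 12 h, then 24, 48 and 72 h. In courses 1 to 3 the cells received IL6 (20 ng/ml) with TGFb (1 ng/ml), the pair that starts the Th17 fate, or no cytokines. In courses 4 to 6 they received IL6 and TGFb together with IL1b (10 ng/ml), with IL21 (20 ng/ml) or with both. Every stimulated culture, those without cytokines included, stood on plate-bound antibodies to CD3 (0.5 µg/ml) and CD28 (5 µg/ml), so no group shows a cytokine without T cell receptor stimulation. Each set of courses had its own naive group at 0 h, and the 47 groups held 3 libraries each. The labels call these biological replicates, but which mice or cultures they share, and the age of the mice, are not known from these sources, so p-values measure only the spread between libraries, which may be technical.

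KLFs are zinc-finger transcription factors that bind CACCC and GC-rich elements, and several of them restrain growth in resting cells. In naive T cells FOXO1 stays in the nucleus and drives quiescence and homing genes, among them Klf2, Il7r and Ccr7. Signals from the T cell receptor and CD28 activate PI3K and AKT, which send FOXO1 out of the nucleus. KLF2 in turn drives S1pr1, the receptor with which T cells sense sphingosine 1-phosphate and leave lymph nodes, while CCR7 binds CCL19 and CCL21 and brings them in.

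Libraries held 16 to 47.1 M reads (median 25.4 M), so that 1 read was worth at most 0.0627 CPM, the unit in which all libraries have an equal total. All levels below are CPM divided by a scaling factor (TMM), called CPM for short, in the order of courses 1, 2 and 3 or 4, 5 and 6; changes are log2 values ± SE, fitted by limma over groups of 3 libraries, and a change was called at an adjusted p under 0.05. Both naive groups had the CD4 T cell markers (summed level of 9 genes 5140 to 5660 CPM, none at 0), and stimulated libraries ran from 2250 to 5620 CPM. Summed markers of other cells in naive libraries were 11 to 23.5 CPM for B cells (8 genes), 26.1 to 47.7 for myeloid cells (10), 36.2 to 46.1 for CD8, NK and gamma-delta T cells (8), 26.9 to 56.2 for erythroid cells and platelets (9) and 1.32 to 2.46 for endothelial and stromal cells (11); no gene of these lists was at 0 in every library. From 24 h the myeloid sum was 0.811 to 2.67 CPM and the B cell sum 1.23 to 12.2 CPM. The erythroid sum was 0.973 to 4.69 CPM and the CD8, NK and gamma-delta sum 4.51 to 90 CPM, while the endothelial and stromal sum reached 209 CPM. Levels of the single genes in these sums are not given here, and the part of these cells in the results was not tested.

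Some libraries stood apart from the others of their group. The course 1 libraries without cytokines at 72 and 48 h lay 0.62 and 0.423 log2 units (root mean square over genes) from their group mean, against a median of 0.156 over all libraries. At 72 h without cytokines Klf2 stood at 8.78 CPM in course 1 and at 199 and 207 CPM in courses 2 and 3, S1pr1 at 8.41, 205 and 209 CPM, Foxo1 at 78.8, 212 and 219 CPM and Klf13 at 115, 336 and 346 CPM. In the same course 1 library the proliferation marker Mki67 was at 777 against 2180 and 2280 CPM, and the activation marker Cd69 at 122 against 39.3 and 34.9 CPM. Some results that use these libraries are given with and without them, an alternative chosen after the data were seen. Others are given only with them, among them single steps into 48 and 72 h and the other gene lists at those times. In courses 4 to 6, the course 5 library of the IL21 cocktail at 2 h had 184 CPM Klf2, 375 CPM S1pr1, 90.1 CPM Klf3 and 378 CPM Ccr7, each above both other libraries of its group; without it no call between cocktails changed, and 10 calls of cocktails against naive cells were gained and 0 lost.

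Promoter windows, the 250 bases before the annotated start, are shown for Klf2, Klf3, Klf6 and Foxo1, since these 4 genes carry the contrasts described below. They are RefSeq sequences of the build GRCm38.p6, 5′ to 3′ on the plus strand, where all 4 genes lie; Klf2 is at chr8:72318812-72319061, Klf3 at chr5:64803271-64803520, Klf6 at chr13:5861239-5861488 and Foxo1 at chr3:52268087-52268336. Capitals mark CACCC, a KLF-type element, or its reverse complement GGGTG.
Klf2: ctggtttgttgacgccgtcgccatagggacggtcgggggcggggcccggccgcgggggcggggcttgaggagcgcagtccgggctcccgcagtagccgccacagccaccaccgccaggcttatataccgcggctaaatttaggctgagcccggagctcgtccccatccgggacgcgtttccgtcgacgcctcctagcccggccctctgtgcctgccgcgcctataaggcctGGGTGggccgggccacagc
Klf3: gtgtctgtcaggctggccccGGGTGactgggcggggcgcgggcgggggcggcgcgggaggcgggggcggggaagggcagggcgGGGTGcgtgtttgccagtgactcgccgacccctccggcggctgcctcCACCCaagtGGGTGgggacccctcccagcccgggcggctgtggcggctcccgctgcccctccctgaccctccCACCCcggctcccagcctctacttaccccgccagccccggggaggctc
Klf6: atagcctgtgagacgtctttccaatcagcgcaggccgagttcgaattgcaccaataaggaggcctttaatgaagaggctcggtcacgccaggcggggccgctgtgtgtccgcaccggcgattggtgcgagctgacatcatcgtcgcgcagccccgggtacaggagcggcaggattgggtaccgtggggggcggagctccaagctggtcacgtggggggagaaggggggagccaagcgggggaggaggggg
Foxo1: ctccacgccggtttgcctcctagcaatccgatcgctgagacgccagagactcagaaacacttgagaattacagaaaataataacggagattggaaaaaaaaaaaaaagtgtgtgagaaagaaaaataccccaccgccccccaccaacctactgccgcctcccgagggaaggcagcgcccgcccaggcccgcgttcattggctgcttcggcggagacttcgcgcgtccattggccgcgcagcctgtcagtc
The Klf3 window held 5 CACCC matches on either strand, the Klf2 window 1, and the Klf6 and Foxo1 windows 0; Klf7 had 3 and Klf13 1. CACCC occurs in 52% of all 32851 windows of this length. The looser element CCNCNCCC, some of whose matches contain CACCC, was found 10 times in the Klf3 window, 8 times in Klf7, 5 in Klf13, 4 in Klf2, 2 in Klf6 and 1 in Foxo1, and in 45.9% of all windows. The forkhead element GTAAACA was in 0 of these 6 windows and in 3.17% of all windows on either strand. The 4 windows printed had GC contents of 71.2% (Klf2), 78.4% (Klf3), 64.8% (Klf6) and 56% (Foxo1). Of the 8 genes 6 matched the table; S1pr1 and Ccr7 are named only.

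Stimulation without cytokines lowered 7 of the 8 genes for most of the course, and the first calls came at different times. Klf2, Klf3, Klf6 and S1pr1 were lower than in naive cells by 2 h, all 8 genes were lower at 4 h, and all but Ccr7 stayed lower from 6 to 72 h. In all, 51 of 72 tests (8 genes, 9 times) were called, 48 lower and 3 higher; over all genes 63.7% of such tests were called and 32.4% were lower. At 4 h 8 of 8 were lower, against 38.1% of all genes, and at 0.5 h Klf6 and Ccr7, 2 of 8, were higher, against 13.3% of all genes. In bulk RNA, fewer cells of a type and less RNA per cell cannot be told apart.

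Foxo1, which encodes the forkhead factor itself, was at 468, 501 and 441 CPM in naive cells. Without cytokines its mean was 498, 439, 356, 110, 77.6, 94.7, 74, 130 and 170 CPM at the 9 times in order. The step between 2 and 4 h (-1.70 ± 0.23) and the one between 24 and 48 h (0.72 ± 0.23, adjusted p = 0.0109) passed the test, and no other pair of neighbouring times did. At 24 h the level was 78.5, 68 and 75.4 CPM, below every naive library, a change of -2.66 ± 0.23 (adjusted p = 9.46e-14).

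Klf2, the quiescence factor, was at 609, 602 and 446 CPM in naive cells. Its mean without cytokines was 850, 314, 128, 40.8, 30.3, 21.8, 25.8, 38.1 and 139 CPM over the 9 times. The libraries at 2 h (149, 125 and 112 CPM) were already below all naive ones (-2.10 ± 0.63, adjusted p = 0.0033), and the lowest group mean, at 12 h, held 31, 10.2 and 24.4 CPM (-4.75 ± 0.63, adjusted p = 8.06e-09). At 72 h the change was -2.91 ± 0.63, and -1.42 (adjusted p = 0.00443) without the course 1 libraries at 48 and 72 h.

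Klf3, a repressor that recruits CtBP, had 280, 295 and 238 CPM in naive cells. Its mean without cytokines was 207, 136, 75.5, 23.4, 24.9, 44, 44.2, 54.6 and 111 CPM, lowest at 4 h (28, 21.3 and 20.9 CPM, a change of -3.51 ± 0.22, adjusted p = 2.2e-18). It then climbed in part: the steps between 6 and 12 h (0.82 ± 0.22, adjusted p = 0.00285) and between 48 and 72 h (0.96 ± 0.22, adjusted p = 0.00258) were called upward. At 72 h, with 64.2, 132 and 138 CPM, it was still below every naive library.

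Klf6, a KLF known for early induction in many cell types, was at 783, 1130 and 925 CPM after 0.5 h without cytokines and at 424, 363 and 255 CPM in naive cells (1.46 ± 0.15, adjusted p = 4.22e-10). Its mean then was 374, 119, 42.2, 34.9, 28.2, 29.3, 90 and 187 CPM from 1 to 72 h. All 3 libraries at 0.5 h were above, and all 3 at each time from 2 h on below, every naive library. The lowest group, at 12 h, held 25.4, 33.6 and 25.7 CPM (-3.58 ± 0.15, adjusted p = 1.05e-23), and steps upward were called between 24 and 48 h (1.60 ± 0.15) and between 48 and 72 h (1.05 ± 0.15).

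Klf7, a KLF known mainly from neurons, peaked later, at 1 h. Its level there was 115, 144 and 105 CPM, against 49.7, 51.3 and 43.1 CPM in naive cells (1.32 ± 0.21, adjusted p = 8.78e-07). Means from 2 to 72 h were 61, 24.6, 16.4, 16.7, 15.4, 19.1 and 20.3 CPM, lower than naive from 4 h on and lowest at 24 h (-1.61 ± 0.21, adjusted p = 5.12e-09). Klf13, which binds the Ccl5 promoter in activated T cells, had 648, 647 and 662 CPM at 2 h and 665, 762 and 590 CPM in naive cells, an overlap. The step between 2 and 4 h was called downward (-1.67 ± 0.23, adjusted p = 6.22e-08), with 196, 204 and 213 CPM at 4 h, and the mean was 143 CPM at 6 h. Its lowest level, 127, 105 and 117 CPM at 12 h, was below every naive library (-2.52 ± 0.23, adjusted p = 4.66e-13).

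S1pr1, the egress receptor, was at 472, 547 and 506 CPM in naive cells. Its mean without cytokines was 767, 507, 142, 22.3, 12.8, 8.19, 9.22, 34.4 and 141 CPM. Steps down were called between 1 and 2 h (-1.86 ± 0.65, adjusted p = 0.0121) and between 2 and 4 h (-2.64 ± 0.65, adjusted p = 0.000625), and the 12 h libraries had 11.6, 5.07 and 7.91 CPM (-5.94 ± 0.65, adjusted p = 5.16e-11). The call at 2 h (-1.91) was lost without course 2 (-1.61, adjusted p = 0.114) or course 3 (-1.85, adjusted p = 0.0916). At 72 h the change from naive was -2.81 ± 0.65, and -1.29 (adjusted p = 0.00489) without the course 1 libraries at 48 and 72 h.

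Ccr7, the entry receptor, was called higher at 0.5 h and lower at 4 h. It had 1300, 988 and 717 CPM at 0.5 h without cytokines and 467, 438 and 394 CPM in naive cells (1.17 ± 0.33, adjusted p = 0.00661), a call lost without course 2 (1.17, adjusted p = 0.167). At 4 h it was at 219, 164 and 126 CPM, below every naive library (-1.38 ± 0.33, adjusted p = 0.000214), and at 6 h at 636, 482 and 367 CPM, overlapping the naive range again. The step between 4 and 6 h was called upward (1.54 ± 0.33, adjusted p = 0.000389), and from 6 to 72 h no difference from naive cells passed the test. At 1 h the change from naive was 0.72 ± 0.33 with an adjusted p of 0.0579, and 0.0299 with course as a replicate block. At 24 h it was -0.68 with an adjusted p of 0.0585, and 0.0308 with the block.

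Over the steps between neighbouring times, 27 of 72 tests were called for the 8 genes with IL6 and TGFb, against 37.7% over all genes. Without cytokines it was also 27 of 72, against 36.8% over all genes; there Klf6 had 6 called steps, Klf3 and Ccr7 5 each, Klf7 4, Klf13, Foxo1 and S1pr1 2 each and Klf2 1. Without the course 1 libraries without cytokines at 48 and 72 h the counts were 41 with IL6 and TGFb and 43 without cytokines, in a fit whose shares over all genes are not reported here. No step with IL6 and TGFb uses these libraries, but the spread of each gene is estimated over all groups of the fit, so they enter the SE at every time.

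**Figure D1:**
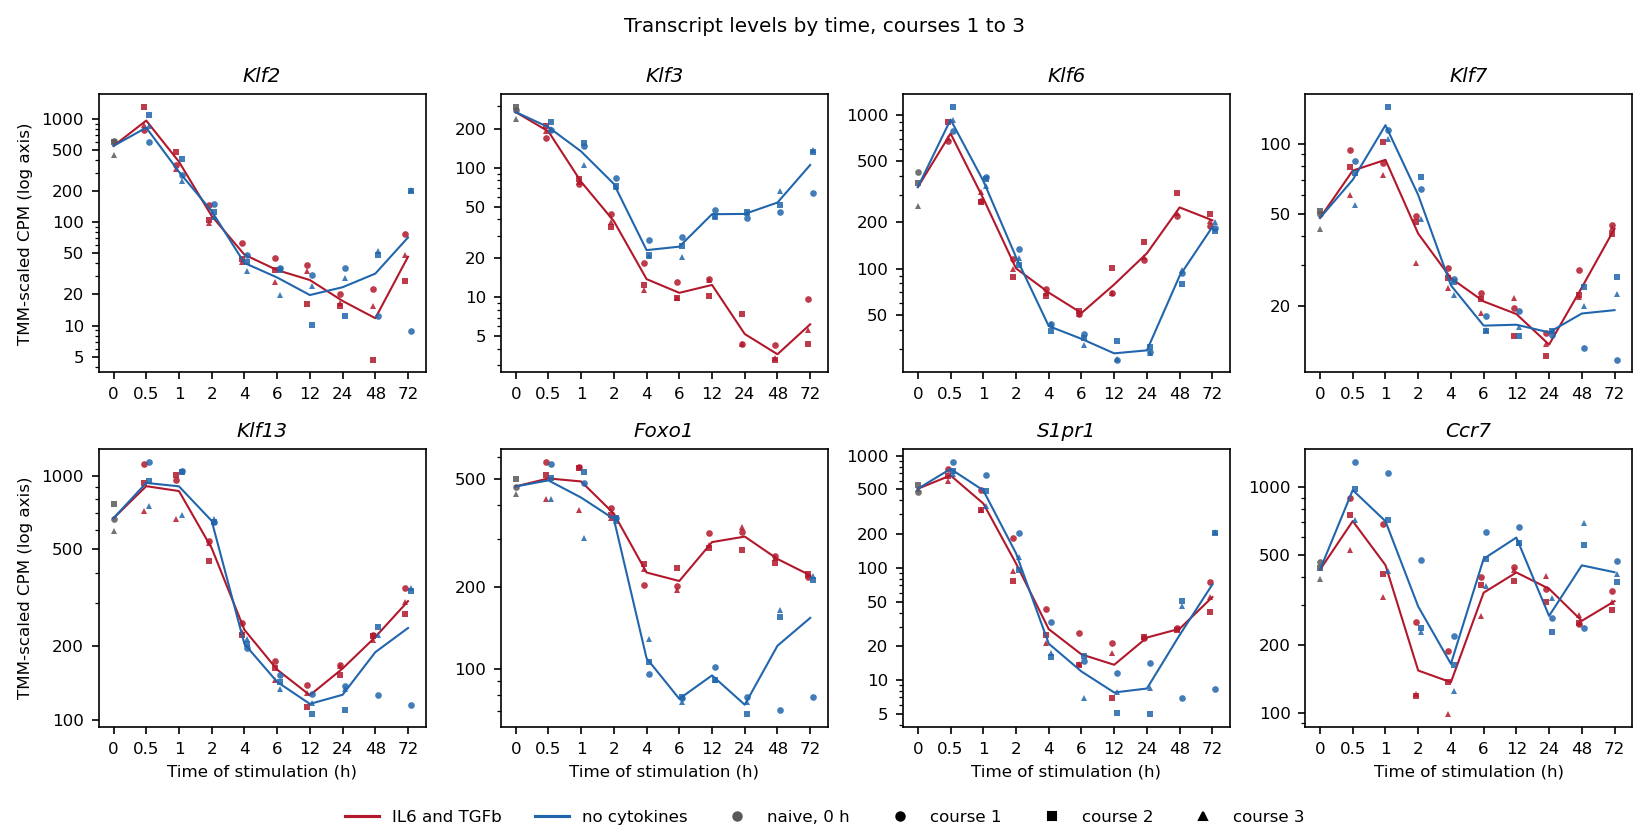
Levels of the 8 genes in courses 1 to 3 (y axis, TMM-scaled CPM, log scale) by hours of stimulation (x axis), for IL6 with TGFb and for no cytokines; symbols are libraries by course and lines are geometric means of 3. Klf3 separates from 1 h on, and Klf6 and Foxo1 between 4 and 48 h. The course 1 library without cytokines at 72 h lies far below the others for Klf2 (8.78 CPM) and S1pr1 (8.41 CPM).

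With IL6 and TGFb, Klf3 was lower and Foxo1 and Klf6 were higher than without cytokines for much of the course. Relative to cells without cytokines, Klf3 was lower at 8 of 9 times, with a gap that was -0.78 at 1 h and -3.98 at 72 h. Foxo1 and Klf6 were higher, each at 5 times, from 4 to 48 h, and Klf7 was higher at 72 h. Ccr7 was lower at 2 times, while Klf2, Klf13 and S1pr1 had 0 calls in the fit of all groups. In all, 21 of 72 tests were called, 11 higher and 10 lower; over all genes 18.3% of tests were called, 9.48% higher and 8.83% lower.

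For Klf3 the groups overlapped at 0.5 h, with 170, 212 and 194 CPM under IL6 and TGFb and 196, 225 and 199 CPM without cytokines (-0.11 ± 0.22). At 1 h they no longer did: 74.7, 82.3 and 77.5 CPM with the cytokines, against 147, 156 and 105 CPM without (-0.78 ± 0.22, adjusted p = 0.0167). At 24 h the levels were 4.38, 7.43 and 4.37 CPM with the cytokines and 41.4, 46 and 45.1 CPM without (-2.96 ± 0.22, adjusted p = 7.07e-15). With the cytokines the mean was 14.2 CPM at 4 h and 6.57 CPM at 72 h, and without them 23.4 CPM at 4 h and 111 CPM at 72 h. At 72 h cells with IL6 and TGFb had 9.7, 4.36 and 5.65 CPM, and cells without cytokines 64.2, 132 and 138 CPM, a change of -3.98 ± 0.22 (adjusted p = 1.64e-19). Without the course 1 libraries at 48 and 72 h it was -4.33. The early calls are less firm: those at 1, 2 and 4 h were lost without course 2 (adjusted p = 0.287, 0.075 and 0.432) and without course 3 (0.0816, 0.0541 and 0.491), and that at 4 h had an adjusted p of 0.04999, and 0.0639 in edgeR.

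Foxo1 moved the other way. From 0.5 to 2 h its levels overlapped between the cytokine groups, with changes of 0.02 to 0.20. At 4 h it had 204, 243 and 234 CPM under IL6 and TGFb and 95.9, 106 and 129 CPM without cytokines (1.05 ± 0.23, adjusted p = 0.00219), a call lost without course 2 (0.97, adjusted p = 0.24). At 24 h the levels were 319, 273 and 332 CPM with the cytokines, against 78.5, 68 and 75.4 CPM without (2.05 ± 0.23, adjusted p = 1.35e-09), so every library with the cytokines was above every one without. Relative to naive cells, Foxo1 at 24 h was at -0.61 ± 0.23 with IL6 and TGFb and at -2.66 ± 0.23 without cytokines. At 48 h the cytokine effect was 1.06 ± 0.23, and 0.66 (adjusted p = 0.000155) without the course 1 libraries at 48 and 72 h; at 72 h it was 0.52 (adjusted p = 0.0632), and 0.04 without them.

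Klf6 was likewise higher at each time between 4 and 48 h. At 24 h it had 113, 148 and 119 CPM under IL6 and TGFb, and 28.6, 31 and 28.3 CPM without cytokines (2.08 ± 0.15, adjusted p = 3.35e-15). At 48 h it was at 219, 310 and 231 CPM with the cytokines and at 93.1, 79.1 and 97.8 CPM without (1.48 ± 0.15). Again no library of either group reached the range of the other at these times. At 72 h the groups overlapped, with 189, 227 and 205 CPM with the cytokines and 184, 176 and 201 CPM without (0.14 ± 0.15). The call at 4 h (0.72) was lost without course 3 (0.75, adjusted p = 0.0532), and the call at 6 h (0.55) without course 2 (0.54, adjusted p = 0.0695) or course 3 (0.51, adjusted p = 0.371).

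Klf7 differed at 72 h, where cells with IL6 and TGFb had 44.8, 40.9 and 43.5 CPM and cells without cytokines 11.7, 26.6 and 22.6 CPM (1.14 ± 0.21, adjusted p = 1.61e-05; 0.80 without the course 1 libraries). The 72 h level with the cytokines overlapped the naive one of 49.7, 51.3 and 43.1 CPM (-0.15 ± 0.21, adjusted p = 0.514). Ccr7 was lower at 2 h, with 254, 119 and 122 CPM against 478, 239 and 229 CPM (-0.94 ± 0.33, adjusted p = 0.0499), and at 48 h, with 248, 251 and 271 CPM against 238, 558 and 693 CPM (-0.82 ± 0.33, adjusted p = 0.0326). At both times the ranges overlapped, but at 2 h the cytokine library was the lower one in each of the 3 courses, and libraries of a course deviated together there (r of 0.405 to 0.507). With course as a replicate block the 2 h call had an adjusted p of 0.0209. Without the block, the 2 h call was lost in edgeR (adjusted p = 0.0611), without course 2 (0.482) and without course 3 (0.133), and the 48 h call without course 2 (-0.65, adjusted p = 0.347) and without course 3 (-0.55, adjusted p = 0.245); without the course 1 libraries the 48 h value was -1.28.

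Klf2, Klf13 and S1pr1 had 0 calls in the limma fit of all groups at 9 times each, and 1, 0 and 1 of 9 at an unadjusted p under 0.05. A limma fit of only the libraries compared, with course as a replicate block, called 43 of 72 tests over the 8 genes. The share of all genes called in that fit is not reported here, and the 18.3% above belongs to the fit of all groups. There 25 calls were gained and 3 lost, and not all of the gains lay outside Klf2, Klf13 and S1pr1. In edgeR Klf2 was called at 48 h (adjusted p = 0.0351) and 72 h (0.0275) and S1pr1 at 72 h (0.0496), and in DESeq2 Klf2 at 48 h (0.0259) and 72 h (0.0295), all lower with the cytokines. At 72 h cells with IL6 and TGFb had 76.2, 27 and 48.5 CPM Klf2, and cells without cytokines 8.78, 199 and 207 CPM (-0.63 ± 0.63, adjusted p = 0.43). For S1pr1 the values were 74.4, 40.1 and 55.4 CPM with the cytokines and 8.41, 205 and 209 CPM without (-0.39 ± 0.65, adjusted p = 0.648). In both genes the course 1 library without cytokines lay below all libraries with them, and the other 2 lay above. Without the course 1 libraries at 48 and 72 h, Klf2 was lower at 48 h (-2.04, adjusted p = 9.46e-05) and at 72 h (-2.12, adjusted p = 6.14e-05), and S1pr1 was higher at 24 h (1.45, adjusted p = 0.00125) and lower at 72 h (-1.90, adjusted p = 8.38e-05). S1pr1 at 24 h stood at 23.7, 24 and 24.1 CPM with the cytokines and at 14.2, 4.94 and 8.48 CPM without.

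At 24 h 3 of 8 genes (Klf3, Klf6 and Foxo1) differed with the cytokines, against 26.1% of all genes, at 2 h 2 of 8 (Klf3 and Ccr7) against 12.7%, and at 72 h 2 of 8 (Klf3 and Klf7) against 46.2%. Among all genes called at 72 h 49.4% were higher, and 38.6% without TMM scaling. The cytokine effect itself differed between 72 and 2 h for 2 of 8 genes, Klf3 (-3.03 ± 0.31, adjusted p = 1.07e-10) and Klf7 (1.69 ± 0.30, adjusted p = 1.26e-05), against 35.3% of all genes. Without the course 1 libraries at 48 and 72 h it was 4 of 8, with Klf2 (-1.97, adjusted p = 0.00491) and S1pr1 (-1.60, adjusted p = 0.0123) added. The share of all genes called in that fit is not reported here.

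**Figure D2:**
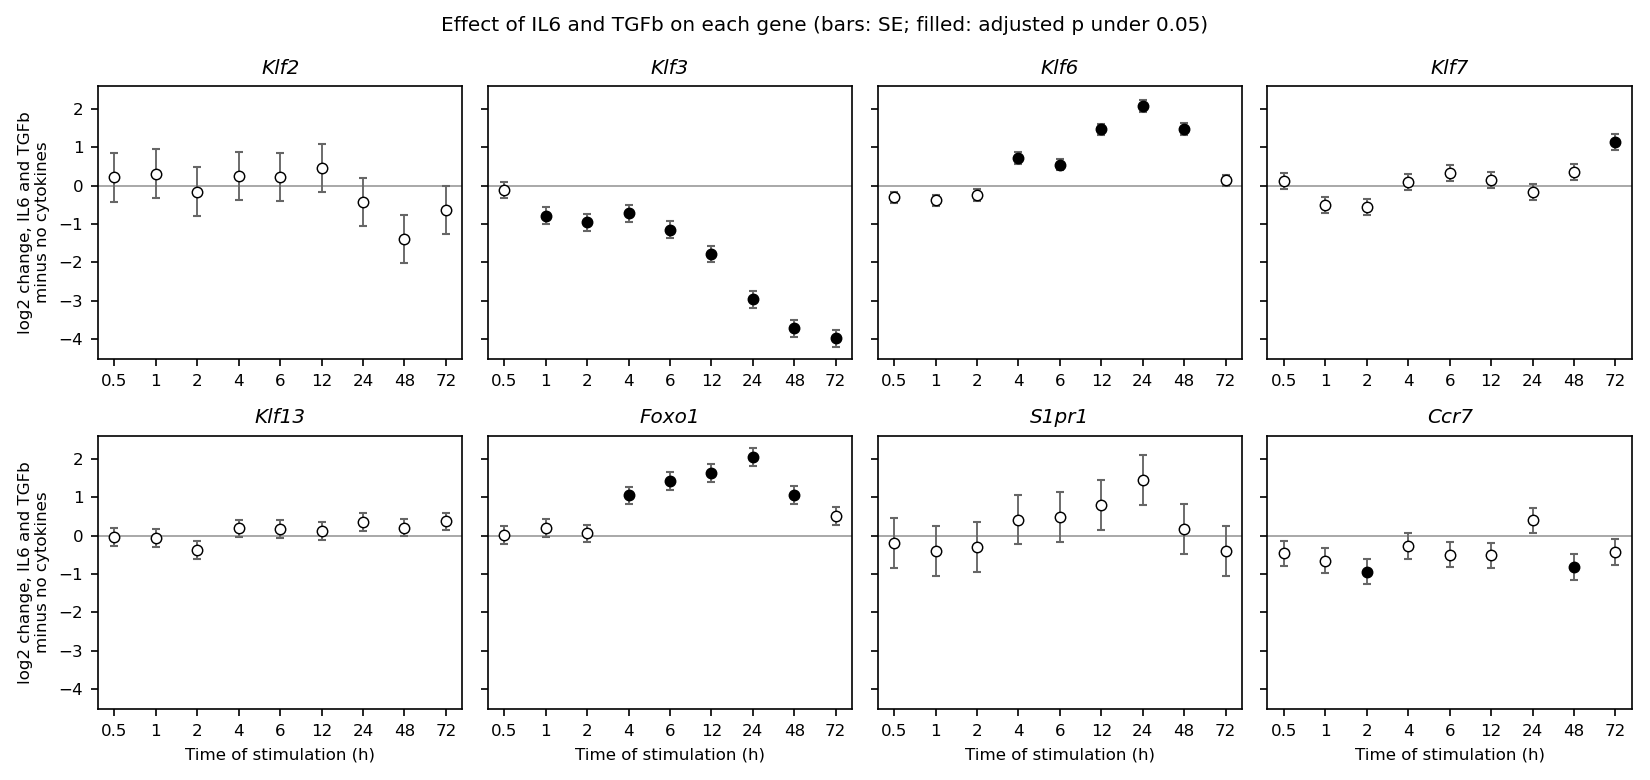
Log2 change of IL6 with TGFb over no cytokines (y axis, ± SE from limma) by hours of stimulation (x axis) for each of the 8 genes; filled points have an adjusted p under 0.05. The Klf3 effect is -0.11 at 0.5 h and -3.98 at 72 h, and those of Klf6 and Foxo1 are highest at 24 h (2.08 and 2.05).

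Set against naive cells, the IL6 and TGFb course lowered each gene but Ccr7 at 5 to 8 of 9 times, and Ccr7 at 3: 52 of 72 tests were called, 49 lower and 3 higher (Klf6 at 0.5 h, Klf7 at 0.5 and 1 h), against 66.6% of all tests over all genes called and 33.9% called lower. This comparison shares its naive libraries with the one without cytokines. Klf3 went lowest at 48 h, with 4.27, 3.3 and 3.43 CPM, -6.03 ± 0.22 relative to naive (adjusted p = 2.25e-26). Klf2 too was lowest at 48 h (22.7, 4.67 and 15.5 CPM, -5.46 ± 0.63), and the step from there to 72 h was called upward (1.92 ± 0.63, adjusted p = 0.0141). Foxo1 stayed between -0.61 and -1.15 log2 units from naive at all times from 4 to 72 h.

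The IL1b and IL21 cocktails of courses 4 to 6 began from naive cells that did not differ in a call from those of courses 1 to 3. In limma 0 of 8 genes were called between the naive groups, 0 at an unadjusted p under 0.05, and 0 in edgeR and in DESeq2; the differences ran from -0.16 to -0.06, and 0.15% of all genes were called (95.7% of them higher, and 85.2% without TMM scaling). Against their own naive cells, 165 of 216 tests (3 cocktails, 8 genes, 9 times) were called, 143 lower and 22 higher, against 70.7% over all genes, 37.2% lower. Klf3 was lower in 24 of 27 tests and higher in 0. Klf2 was lower in 21, S1pr1 in 21, Foxo1 in 19, Klf13 in 18, Klf6 in 17, Klf7 in 15 and Ccr7 in 8.

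Early rises were called for Klf6 at 0.5 h in all 3 cocktails (1.34 to 1.44), for Klf7 and Klf13 at 0.5 and 1 h in all 3, and for Foxo1 at 1 h in all 3. Klf13 at 1 h had 1180, 1100 and 1210 CPM with IL1b, 905, 1140 and 1140 CPM with IL1b and IL21, and 1070, 1060 and 1180 CPM with IL21, against 669, 568 and 599 CPM in naive cells. Every cocktail library was above the naive range. Klf2 was called higher at 0.5 h with IL1b (1090, 875 and 1050 CPM, against 685, 360 and 541 CPM in naive cells; 0.97 ± 0.35, adjusted p = 0.0322). With IL1b and IL21 at 0.5 h, Klf2 was at 0.83 (adjusted p = 0.0608, and 0.0342 with course as a replicate block) and Foxo1 at 0.27 (0.0929, and 0.0358 with the block). With IL21 at 0.5 h, Klf2 was likewise at 0.83 (adjusted p = 0.0627, and 0.0358 with the block). No difference between cocktails was called for Klf2 at that time.

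In these courses Klf2, Klf3 and S1pr1 were higher at 12 h than at 6 h, described here without a test, and Klf2 and Klf3 were lower again by 24 h. Klf2 in the 9 cocktail libraries ran from 21.6 to 32.6 CPM at 6 h, from 48.9 to 89.7 CPM at 12 h and from 15.5 to 48.7 CPM at 24 h. Klf3 ran from 6.84 to 9.28, from 15.9 to 20.6 and from 3.67 to 4.85 CPM at the same times. S1pr1 ran from 10.3 to 19.6, from 28.2 to 54.7 and from 28.9 to 47.4 CPM, then from 28.2 to 45.6 CPM at 48 h and from 40.9 to 94 CPM at 72 h, so that its later ranges overlapped that at 12 h. All libraries at 12 h were above all libraries at 6 h in each of the 3 genes. How many of all genes separated in this way was not counted. In courses 1 to 3 under IL6 and TGFb, Klf3 had 13.2, 9.86 and 9.82 CPM at 6 h and 13.9, 10.3 and 13.6 CPM at 12 h. Klf2 and S1pr1 levels of those groups are not given here, so the rise is not shown to be particular to the cocktails. Ccr7 in the cocktails was at 64.7 to 93 CPM at 4 h, at 244 to 354 CPM at 6 h and at 565 to 640 CPM at 12 h. Its ranges at 6 and 12 h were thus also apart, while those of Klf6, Klf7, Klf13 and Foxo1 overlapped. At 12 h Ccr7 was called above naive in all 3 cocktails (0.50 to 0.58).

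**Figure D3:**
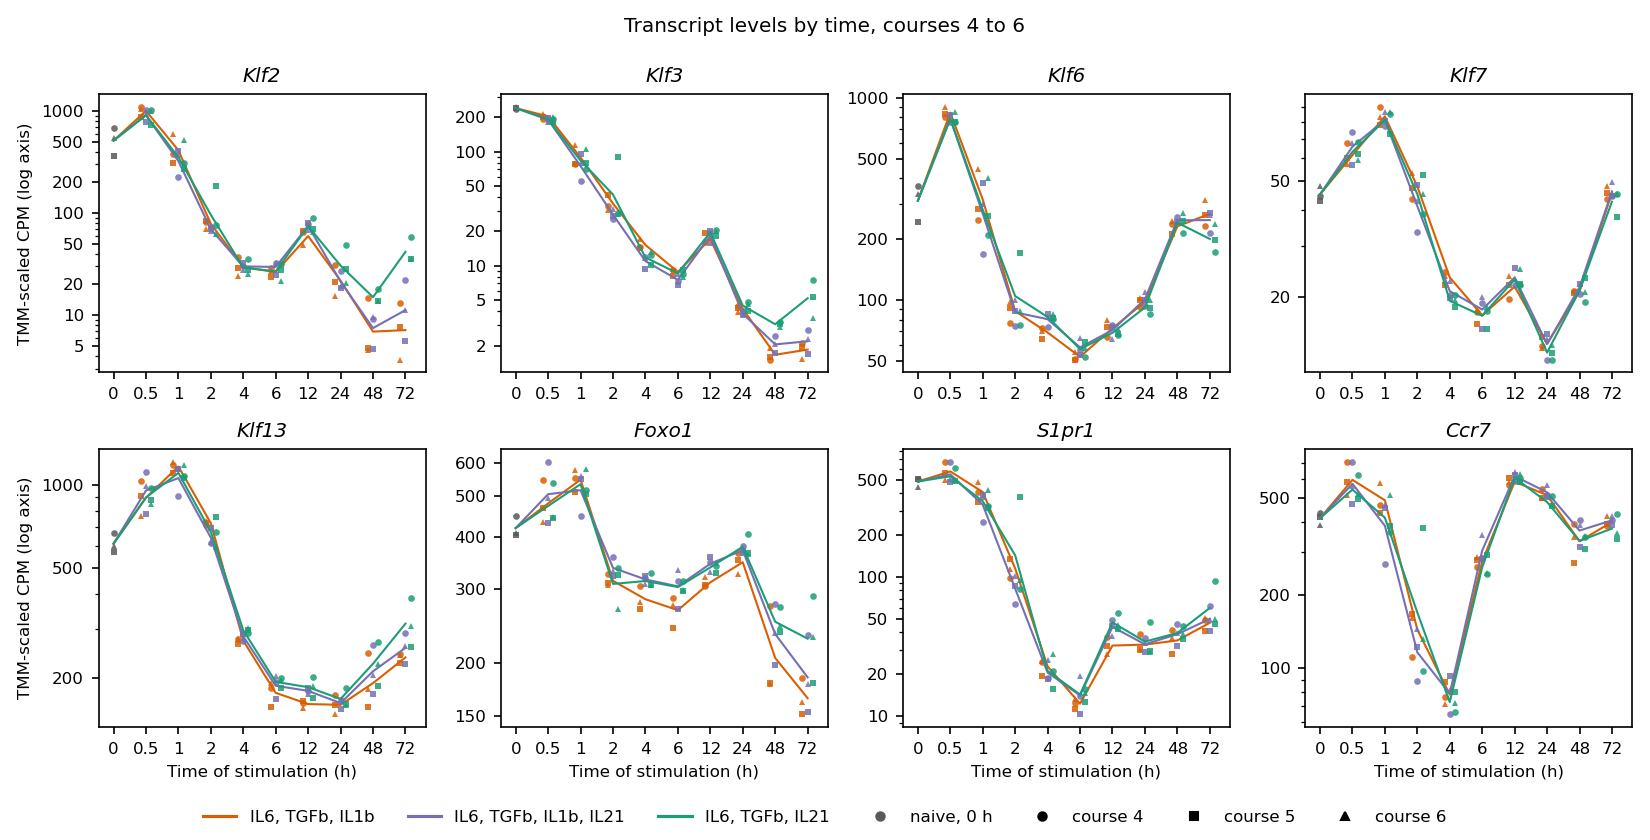
Levels of the 8 genes in courses 4 to 6 (y axis, TMM-scaled CPM, log scale) by hours of stimulation (x axis) for the 3 cocktails; symbols are libraries by course and lines are geometric means of 3. No difference between cocktails was called before 48 h, Klf2, Klf3 and S1pr1 are higher at 12 h than at 6 h, and at 72 h Klf2 and Klf3 are lower in both cocktails with IL1b.

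Differences from the IL21 cocktail were called at 72 h for both cocktails with IL1b, with Klf2 and Klf3 changed most. At 48 h a call came only for the IL1b cocktail without IL21. The IL1b and the IL21 cocktail differ in both cytokines, so calls between them cannot be assigned to IL1b alone. Over 9 times, 5 of 72 tests between the IL1b and the IL21 cocktail were called, all lower with IL1b, against 1.38% over all genes, 0.764% lower. At 72 h it was 4 of 8 genes (Klf2, Klf3, Foxo1 and Klf13), against 9.58% of all genes. The cocktail with both IL1b and IL21 differed from the IL21 cocktail in 2 of 72 tests (0.616% over all genes), at 72 h in Klf2 and Klf3 (2 of 8, against 4.08%). Between the cocktail with both and the IL1b cocktail 0 of 72 tests were called in limma, 2 at an unadjusted p under 0.05 and 0 in edgeR and DESeq2, against 0.0135% over all genes (94.4% of those calls higher, and 46.9% without TMM scaling).

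Klf2 at 72 h had 13.1, 7.59 and 3.65 CPM with IL1b, 22.3, 5.57 and 11.3 CPM with IL1b and IL21, and 58.2, 35.4 and 35.1 CPM with IL21. Neither cocktail with IL1b reached the lowest IL21 library. The change against the IL21 cocktail was -2.45 ± 0.35 for IL1b (adjusted p = 4.5e-07) and -1.84 ± 0.35 for IL1b with IL21 (adjusted p = 0.000232), the second lost without course 5 (-1.48, adjusted p = 0.0993). Klf3 at 72 h had 2.12, 1.93 and 1.53 CPM with IL1b, 2.71, 1.67 and 2.29 CPM with both, and 7.49, 5.32 and 3.51 CPM with IL21. Here too the groups did not overlap, with -1.28 ± 0.21 for IL1b (adjusted p = 6.28e-06) and -1.09 ± 0.21 for both (adjusted p = 0.00022). At these low levels the added 0.5 makes the log2 change smaller than that of the levels.

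Foxo1 at 72 h had 184, 151 and 162 CPM with IL1b and 290, 179 and 231 CPM with IL21, ranges that overlap (-0.47 ± 0.13, adjusted p = 0.00878; lost without course 6, -0.45, adjusted p = 0.255). Klf13 had 244, 225 and 241 CPM with IL1b and 387, 259 and 307 CPM with IL21 (-0.40 ± 0.13, adjusted p = 0.0293), a call lost without course 4 (-0.28, adjusted p = 0.188) or course 6 (-0.43, adjusted p = 0.295). The fifth call, Klf3 at 48 h (-0.72 ± 0.21, adjusted p = 0.0424), was lost when any of the 3 courses was left out (adjusted p = 0.232, 0.118 and 0.295) and in edgeR (0.204). When only the libraries of each comparison entered the fit, none of these calls between cocktails was kept (Klf2 between IL1b and IL21 at 72 h had an adjusted p of 0.102). With course as a replicate block in that fit, 4 of the 5 calls between IL1b and IL21 were kept (Klf2 0.00359, Klf3 0.00853, Foxo1 0.0201 and Klf13 0.038 at 72 h; Klf3 at 48 h had 0.0803), and both calls between IL1b with IL21 and IL21 (Klf2 0.00692 and Klf3 0.021). At 72 h libraries of a course deviated together in these comparisons (r of 0.498 to 0.708 and of 0.514 to 0.819). S1pr1 and Ccr7 at 72 h differed by -0.35 ± 0.27 and 0.09 ± 0.21 between IL1b and IL21, neither called.

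**Figure D4:**
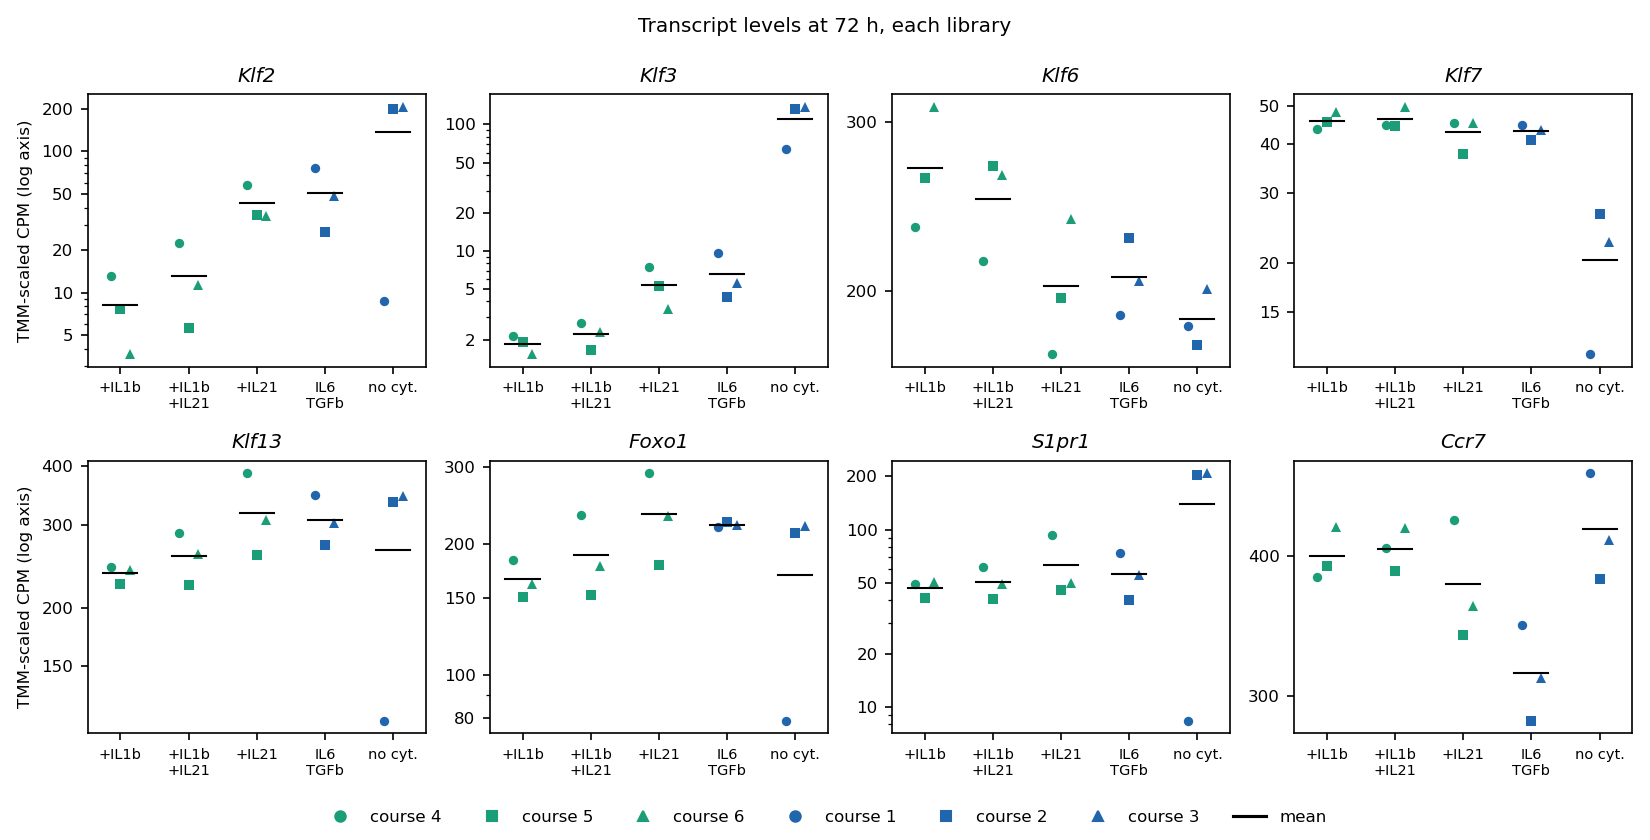
Levels of the 8 genes at 72 h (y axis, TMM-scaled CPM, log scale) by culture (x axis), with symbols for libraries by course and short lines for arithmetic means of 3. Klf2 and Klf3 are low in both cocktails with IL1b, with means of 8.12 and 1.86 CPM for IL1b, while Klf7 is high in every culture with IL6 and TGFb and low without cytokines (mean 20.3 CPM).

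Cocktails and IL6 with TGFb were grown in different courses, so they were compared after each set's own naive level was subtracted, which does not remove any difference between the sets that came later. At 24, 48 and 72 h 3 of 72 tests were called, all lower in the cocktail and all at 72 h, against 0.54% over all genes, 0.302% lower. They were Klf2 with IL1b (-2.51 ± 0.71, adjusted p = 0.0312), Klf3 with IL1b (-1.36 ± 0.31, adjusted p = 0.0029) and Klf3 with IL1b and IL21 (-1.16 ± 0.31, adjusted p = 0.0239). The IL21 cocktail differed from IL6 with TGFb by -0.06 ± 0.71 in Klf2 and -0.07 ± 0.31 in Klf3. Leaving out 1 course ended the Klf2 call without course 3, 4, 5 or 6 (adjusted p = 0.158, 0.0553, 0.11 and 0.526), the Klf3 call with IL1b without course 6 (0.0872) and the Klf3 call with both without course 1, 3, 5 or 6 (0.175, 0.118, 0.153 and 0.138).

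The remaining KLF genes moved in both directions. Of 12, 6 passed the filter, and without cytokines 3 were higher and 2 lower at 2 h than in naive cells (median 0.83, against -0.04 over all genes, of which 69.1% were called). Klf9 (3.27 ± 0.20), Klf16 (2.35 ± 0.11) and Klf10 (2.13 ± 0.23) were higher at 2 h, and at 24 h Klf4 (-4.16 ± 0.32), a KLF tied to resting T cells, and Klf11 (-2.44 ± 0.21) were lower. With IL6 and TGFb 3 of 6 were higher and 0 lower at 24 h (median 0.51, against -0.02 over all genes, of which 26.1% were called). Klf10 (1.48 ± 0.23), which TGFb is known to induce, was among those higher. At 72 h 3 of 6 were again higher and 0 lower, near the 46.2% of all genes called. Klf9 there was at 17.4 ± 1.17 CPM with the cytokines and 7.4 ± 2.29 CPM without (SD, n = 3 each).

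Of 22 other genes that FOXO1 drives or that mark quiescence, 14 were lower and 3 higher at 2 h without cytokines than in naive cells (median -1.48, against -0.04 over all genes, of which 69.1% were called), 18 and 3 at 24 h (median -2.38, against -0.03 over all genes, of which 72.6% were called) and 15 and 1 at 72 h (median -1.56, against -0.01, with 65.3% called). The genes that were higher included the growth inhibitor Btg2 at 2 h (1.79 ± 0.15) and Bach2, a repressor of effector genes, at 24 h (1.08 ± 0.24). With IL6 and TGFb 5 were higher and 4 lower at 24 h, where 26.1% of all genes were called, and 8 and 3 at 72 h, near the 46.2% of all genes. Il7r, the receptor chain for the survival cytokine IL7, was at 205 ± 21.1 CPM with the cytokines and 11.2 ± 4.89 CPM without at 72 h (SD, n = 3 each; 4.24 ± 0.33, adjusted p = 1.03e-14). Satb1, a chromatin organizer, was also higher (2.20 ± 0.21) and Foxp1, a forkhead factor of quiescence, lower (-1.63 ± 0.13).

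Among 17 genes of the PI3K, AKT and FOXO route, 5 were higher and 5 lower at 24 h with IL6 and TGFb (26.1% of all genes were called), and 5 and 4 at 72 h, near the 46.2% of all genes. Sgk1, a kinase that like AKT phosphorylates FOXO1, was at 21.7 ± 8.38 CPM with the cytokines and 2.02 ± 0.47 CPM without at 24 h (SD, n = 3 each; 3.09 ± 0.27, adjusted p = 9.54e-13), and 3.62 ± 0.27 higher at 72 h. Of 12 genes of the sphingosine 1-phosphate pathway, 6 were higher and 4 lower at 2 h without cytokines, against 69.1% of all genes called. Cd69, whose protein binds S1PR1 and takes it off the cell surface, was higher (3.78 ± 0.26), as was the receptor S1pr2 (1.98 ± 0.16), and the receptor S1pr4 was lower (-2.97 ± 0.33). With IL6 and TGFb 4 were higher and 1 lower at both 24 and 72 h, against 26.1% and 46.2% of all genes called.

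Of 19 genes for lymph node homing and adhesion, 6 were higher and 9 lower at 2 h without cytokines (69.1% of all genes were called), and 5 and 10 at 24 h (72.6%), shares near those of all genes, with the chemokine receptor Cxcr4 at -4.95 ± 0.25. With IL6 and TGFb 5 were higher and 2 lower at 24 h (26.1% of all genes), with Cxcr5 (3.40 ± 0.24) and Ccr6 (3.03 ± 0.54) higher, and 9 and 1 at 72 h (46.2%), with Cxcr4 (2.08 ± 0.25) higher. Of 9 CD4 T cell markers 8 were lower with the cytokines at 2 h (12.7% of all genes were called), 2 were higher and 5 lower at 24 h (26.1%), 4 higher and 5 lower at 48 h (52.9%), 3 higher and 1 lower at 72 h (46.2%). At 48 h 5 of 7 B cell markers were lower (median -0.89), at 72 h 4 of 7 (median -0.67), and 0 were higher. Of 6 CD8, NK and gamma-delta T markers 3 were lower and 1 higher at both times (medians -1.34 and -0.98). These stand beside the changes of the 8 genes at those times, and their part in the result was not tested.

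Over the 47 group means (log2 levels), Klf13 was most like Klf7 and S1pr1 among the 8 genes (Pearson r = 0.93 each), Klf2 like Klf3 (0.90) and S1pr1 (0.88), and Ccr7 was least like Klf13 (0.09). These are descriptions, with no test, since groups of a course share cells and time. Among 9124 genes whose mean was 5 CPM or more, the 3 most like Klf2 were Rasgrp2, Plekhn1 and Rnf167 (r = 0.96 each), and those most like Klf3 were Itga4 (0.96), Ighm (0.95) and Limd2 (0.95). For Klf6 they were Cdkn1b (0.94), Ramp1 and Znrf1 (0.92 each), for Klf7 Ip6k2 (0.96), Pde4d (0.95) and Cyth2 (0.94), and for Klf13 Zc3h7a (0.98), Wdr37 and Stk17b (0.97 each). Foxo1 had no gene above 0.88 (Spsb1), followed by Lat (0.86) and Siah1a (0.85). For S1pr1 they were Plekhg2 and Kifc2 (0.97 each) and Map1lc3b (0.96), and for Ccr7 Zfp692 (0.87), R3hdm4 and Ccbl1 (0.86 each).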

How the data were processed

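RNA was sequenced from naive and stimulated CD4 T cells of C57BL/6 mice in 141 libraries. The deposited table holds CPM per gene symbol, made by the authors: all columns have 1 total, and 100% of values were whole multiples of the value of 1 read (tolerance 0.001), which gave the reads. Per the submitters' processing notes, TopHat and HTSeq and the builds mm9 and GRCh37 (a human build) were used, without versions; the use of strand in counting is not given in the sources. Klf3, Klf7 and Foxo1 share 404, 3196 and 674 bases of exon with genes on the other strand, whose levels reached 5.63, 0 and 0.0352 CPM. Klf7 shares another 4 bases with a gene that reached 0.67 CPM. The highest level of the gene over Klf3 lies within the Klf3 range of the cocktails at 72 h (1.53 to 7.49 CPM). Its part in the Klf3 counts was not tested.

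CPM were divided by TMM factors (0.779 to 1.18; edgeR 4.0.16), and limma-trend (limma 3.58.1, R 4.3.3) was run on log2 of the value plus 0.5, with all groups of a course set in 1 fit (courses 1 to 3 had 14695 genes and 38 residual degrees of freedom, courses 4 to 6 had 14859 and 56, and both sets together 15328 and 94). The SE of a gene is therefore shared by its groups. Genes needed at least 1 CPM in at least 3 libraries, and p-values were adjusted by Benjamini-Hochberg over all genes of a comparison. The limma step for courses 1 to 3 was tried on simulated reads, for IL6 with TGFb against no cytokines at 24 h. That simulation gave all genes the same variability and had no course effect and no library standing apart. The other fits were not simulated. The 8 genes were named in every comparison; of each other list up to 3 called genes a direction with a mean of at least 5 CPM could be named, chosen by size of change; a few of these are not reported here. The 8 genes, the lists and the tests were chosen with earlier results of these data known. Alternatives were no TMM scaling, pseudocounts of 0.1 and 2, no filter or a filter at 5 CPM, fits of only the libraries compared, course as a replicate block, each course left out, edgeR and DESeq2 1.42.0 on the reads; leaving out the libraries that stood apart was added after the data were seen. Whether libraries of a course pair was taken from the correlation of their deviations from group means, above 0.1 in all 3 courses: this held in 5 of 9 comparisons of IL6 with TGFb against no cytokines (0.5, 1, 2, 4 and 12 h), 2 of 9 without cytokines against naive, 1 of 9 with IL6 and TGFb against naive, 8 of 27 cocktail comparisons against naive, 6 of 9 steps with IL6 and TGFb and 2 of 9 without cytokines, and, between cocktails, 5 of 9 for IL1b against IL21 and 3 of 9 each for IL1b with IL21 against IL21 and against IL1b, 72 h among them each time; over all comparisons r ran from -0.448 to 0.824.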

Additional observations from a re-analysis of the deposited data

Results flagged for a closer look

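The effect of IL6 with TGFb was tested for a difference between 72 and 2 h, and it differed for 2 of the 8 genes, against 35.3% of all genes. Without the course 1 libraries without cytokines at 48 and 72 h it differed for 4 of 8. The share of all genes in that second fit is not reported here, and the values below are from the first. For Klf3 the effect at 72 h minus that at 2 h was -3.03 (-3.98 at 72 h, -0.95 at 2 h), with lower levels at both times. For Klf7 it was 1.69 (1.14 at 72 h, -0.55 at 2 h, where the effect was not called).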

How the results depend on the processing

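Over 355 calls in 880 tests, the number lost and gained was 10 and 18 without TMM scaling, 2 and 0 with a pseudocount of 0.1, 4 and 4 with a pseudocount of 2, 18 and 0 without a filter, 0 and 1 with the filter at 5 CPM, 9 and 14 in edgeR, 5 and 13 in DESeq2, 18 and 72 with only the libraries compared and 13 and 132 when these also had the replicate block. Course as a replicate block in the whole fit lost 0 and gained 10 calls, 7 of them where the courses did not pair the samples, and reversed 0. In all these counts the steps from 0 to 0.5 h repeat the comparisons of 0.5 h with naive cells in courses 1 to 3. The gained call of Klf7 at 0.5 h without cytokines therefore appears under both. Shares of all genes called in these alternative fits are not reported here, so the counts cannot be set against a background. With only the libraries compared, the call counts were 49 for steps with IL6 and TGFb and 0 each for IL1b and for IL1b with IL21 against IL21; with the replicate block too they were 43 for IL6 with TGFb against no cytokines, 58 and 41 for steps with and without the cytokines, 9 for IL1b against IL21 and 6 for IL1b with IL21 against IL21. No filter left 3 calls for IL1b against IL21, and DESeq2 gave 4 for IL1b with IL21 against IL21. Without the course 1 libraries at 48 and 72 h, 51 calls were gained and 0 lost; the counts were 41 and 43 for steps with and without the cytokines and 4 for the 72 h minus 2 h effect. Leaving out each course in turn gave 2 to 4 calls for that effect, 17 to 32 and 15 to 41 for steps with and without the cytokines, 2 to 5 for IL1b against IL21, 1 to 2 for IL1b with IL21 against IL21 and 0 to 3 for cocktails against IL6 with TGFb; the cause was not tested. The sign reversed for S1pr1 with IL6 and TGFb against no cytokines at 48 h (0.17; leaving out each course gave -0.75 to 0.66, with -0.75 and an adjusted p of 0.0352 in limma without course 1) and for Klf7 in the IL21 cocktail against naive at 2 h (0.00, and -0.29 with an adjusted p of 0.00837 in limma without TMM scaling). Without TMM scaling the median of all genes at 2 h without cytokines was -0.219, against -0.044. Each group had 3 libraries, and course 1 stood apart without cytokines at 48 and 72 h. The late Klf2 and S1pr1 differences between IL6 with TGFb and no cytokines depend on those course 1 libraries and on the method. With all libraries kept, the limma fit of all groups called neither gene. EdgeR called Klf2 at 48 and 72 h and S1pr1 at 72 h, and DESeq2 called Klf2 at both times.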
